A study of Mus musculus with 4 samples.

Results

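The genes described are 10 genes of protein folding in the endoplasmic reticulum (ER): Hspa5, Hsp90b1, Hyou1, Sdf2l1, Dnajb9, Dnajb11, Dnajc3, Creld2, Manf and Xbp1. They were taken as the non-control spots that carry one of these gene names in the scanner files, which gave 21 of 43020 spots, 12 of 39429 probes and 10 of 30107 named genes or transcripts on each array. Dnajb9 and Dnajb11 had a pair of probes each, Creld2 had 1 probe spotted 10 times, and every other gene had a single probe in a single spot. All RNA came from wild type mice of the strain written C57/BL6, and the 4 samples, each measured on 1 single-colour Agilent array, were intestine (the whole organ), crypt, and a pair of organoid samples, y-organoid and o-organoid. The crypt is the pit of the gut epithelium where its stem and Paneth cells sit, and both organoid samples were labelled as crypt-villus organoid, an epithelial culture that forms crypt and villus domains. The sources used here do not give the meaning of the prefixes y and o, the age and number of the animals or the culture conditions. No treatment separates the groups in the labels. The series title concerns acetylcholine made outside neurons and its part in the growth and maturation of Lgr5-positive stem cells, and these 10 genes are read here across the same samples.

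The ER is where secreted and membrane proteins are folded. Hspa5 (BiP) and Hsp90b1 (GRP94) are its main Hsp70 and Hsp90 chaperones, Hyou1 (GRP170) exchanges the nucleotide of Hspa5, and J-domain proteins such as Dnajb9, Dnajb11 and Dnajc3 hand it clients and drive its ATP cycle. When folding falls behind, the sensors Ern1 (IRE1), Atf6 and Eif2ak3 (PERK) start the unfolded protein response, in which Ern1 splices the Xbp1 transcript into one that codes for an active transcription factor. In the gut epithelium Xbp1 is known for its need in Paneth and goblet cells, the professional secretory cells of the crypt. The arrays held a single probe for Xbp1, and its splicing was not measured.

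The motif that is textbook for this response is the ER stress response element (ERSE), a CCAAT box followed by any 9 bases and a CCACG box, searched on both strands. Promoter sequences came from RefSeq (assembly GRCm38.p6) and ran from 250 bases before to 50 bases after each gene's start, and 8 of the 10 genes were in that table, while Hyou1 and Manf were not. The ERSE was in 39 of 32851 promoters (0.119%) and in 4 of these 8, those of Hspa5, Hsp90b1, Dnajc3 and Creld2. These 4 windows of 250 bases before the start are shown, since they carry the element that groups these genes as targets of the response, with the matched bases in capitals. They lie at chr2:34771840-34772089 on the plus strand (Hspa5), chr10:86705445-86705694 on the minus strand (Hsp90b1), chr14:118937682-118937931 on the plus strand (Dnajc3) and chr15:88819396-88819645 on the plus strand (Creld2), and each is written 5′ to 3′ on its gene's strand.
Hspa5: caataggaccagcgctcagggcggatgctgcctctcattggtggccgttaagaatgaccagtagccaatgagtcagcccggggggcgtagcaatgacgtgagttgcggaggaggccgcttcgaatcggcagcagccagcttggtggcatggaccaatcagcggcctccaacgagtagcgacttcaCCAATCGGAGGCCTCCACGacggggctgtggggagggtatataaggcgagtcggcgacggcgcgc
Hsp90b1: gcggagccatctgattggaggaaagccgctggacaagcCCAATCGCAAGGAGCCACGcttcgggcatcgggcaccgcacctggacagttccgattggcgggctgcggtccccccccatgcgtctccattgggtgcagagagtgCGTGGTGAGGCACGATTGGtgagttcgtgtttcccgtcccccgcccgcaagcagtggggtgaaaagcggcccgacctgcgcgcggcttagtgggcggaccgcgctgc
Dnajc3: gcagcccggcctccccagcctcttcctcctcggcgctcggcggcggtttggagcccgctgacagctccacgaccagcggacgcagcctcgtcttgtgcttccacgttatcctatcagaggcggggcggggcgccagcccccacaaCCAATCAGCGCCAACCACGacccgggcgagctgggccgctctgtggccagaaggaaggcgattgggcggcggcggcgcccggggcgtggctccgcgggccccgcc
Creld2: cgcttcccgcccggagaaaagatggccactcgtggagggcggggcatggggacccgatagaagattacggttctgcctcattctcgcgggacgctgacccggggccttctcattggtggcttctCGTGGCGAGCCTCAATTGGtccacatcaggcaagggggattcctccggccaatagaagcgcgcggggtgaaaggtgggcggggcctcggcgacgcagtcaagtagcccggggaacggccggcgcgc
Counted from the start, the match in Hspa5 ran from base -65 to -47 and that in Dnajc3 from -105 to -87. Hsp90b1 held it at -212 to -194 and, on the opposite strand, at -107 to -89, and Creld2 held it on the opposite strand at -126 to -108. A shorter variant, ERSE-II, which is ATTGG, any base and CCACG, was in 12 promoters (0.0365%) and in Dnajb11 among these genes, past the start at base 8 to 18. The Xbp1-type element TGACGTGG was in 222 promoters (0.676%) and in 0 of the 8. The box CCACG alone, which also lies inside both ERSE forms, was in 10765 promoters (32.8%) and in 7 of the 8, with Xbp1 the exception. A match is a description of the letters in the window and not a measurement of binding.

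Each signal is given as the processed intensity and as a log2 signal, which is the log2 of that intensity minus the log2 of the array's 75th percentile (386.1 on the intestine, 469.3 on the crypt, 281.1 on the y-organoid and 641.3 on the o-organoid array). Log2 signals can be compared between arrays for one probe, and levels of different genes were not compared. Signals of different probes were used together only to choose the brighter probe of a gene and to sum marker signals. In such sums the brightest probes weigh most. There was 1 array per group, so every difference compares a pair of arrays and has no test, standard error or p-value between groups. The spread between repeated spots of a probe on one array, pooled over bright and dim probes, gave a technical SD. It was 0.137 to 0.176 on the log2 scale for a difference between arrays, and it leaves out all spread between animals or cultures. A difference was counted from 2-fold upward (1 on the log2 scale). Over all genes well above background on both arrays (14847 to 15549 genes), the median difference was 0.15 for crypt minus intestine, 0.10 for y-organoid minus crypt, -0.03 for o-organoid minus crypt and -0.16 for o-organoid minus y-organoid. Crypt takes part in 3 of these 4 comparisons, so they are not independent of one another.

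Between 51.9% and 58.7% of spots were well above background on each array, and o-organoid was labelled from 40 ng of RNA against 20 ng for each other sample. All 8 pan-epithelial markers were well above background on each array. The intestine array also held the markers of other tissues: 16 of 16 pancreatic acinar, 8 of 8 plasma cell and 8 of 8 fibroblast and smooth muscle markers were well above background there. Their signals, summed as multiples of the 75th percentile, were 10100, 88.3 and 89.5 on the intestine array, and at most 5.90, 8.28 and 0.266 on the other arrays. On those other arrays the plasma cell genes Jchain, Mzb1, Irf4 and Tnfrsf17 were not well above background. The summed signal of 7 Paneth cell markers was 600.5 on intestine, 683.8 on crypt, 235.8 on y-organoid and 435.9 on o-organoid. This sum includes Nupr1, which was lowest on crypt, with log2 signals of 7.11, 1.45, 6.26 and 4.48 in that order. For 8 goblet cell markers the summed signal was 1627, 1250.0, 397.5 and 402.2, and for 10 enterocyte markers 1994, 1703, 92.8 and 263.4, in the same order. The intestine array also came from RNA with another sex-linked profile, since Xist was well above background only there (-1.17 on the log2 scale) and Eif2s3y and Ddx3y only on the other arrays.

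Hspa5, the main Hsp70 chaperone of the ER, had intensities of 14630 on intestine, 23557 on crypt, 8811 on y-organoid and 19202 on o-organoid (probe at chr2:34631913-34631972, plus strand, build mm9). These correspond to log2 signals of 5.24, 5.65, 4.97 and 4.90. Crypt was highest. The gaps from intestine to y-organoid (0.27) and from y-organoid to o-organoid (0.07) were both within a doubled technical SD. Intestine and o-organoid lay further apart than a doubled technical SD for that pair (0.301). The crypt signal stood 0.41 above intestine, while the differences from crypt were -0.68 on y-organoid and -0.75 on o-organoid, so Hspa5 did not reach 2-fold in any of the 4 comparisons.

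Hsp90b1, the Hsp90 chaperone of the ER, had intensities of 8125 on intestine, 12578 on crypt, 5061 on y-organoid and 15154 on o-organoid (chr10:86153770-86153829, minus strand), or log2 signals of 4.40, 4.74, 4.17 and 4.56. Its order was crypt, o-organoid, intestine and y-organoid, and all 3 gaps between neighbours in that order were within a doubled technical SD. The largest difference against crypt was -0.57 on y-organoid, outside a doubled technical SD for that pair (0.352) although each neighbouring gap was inside its own. Hyou1, the exchange factor of Hspa5, was read at low intensities of 42.0, 97.9, 69.1 and 130.5 in the order intestine, crypt, y-organoid and o-organoid (chr9:44199354-44199413, plus strand). Its log2 signals were -3.20, -2.26, -2.02 and -2.30, so intestine was lowest and the other arrays lay within 0.27 of each other. At signals this low the SD of repeated spots of one probe was 0.163 to 0.281 on an array, wider than for brighter probes. Hyou1 stood 0.94 above intestine on crypt, just under 2-fold. That value was 0.22 with normexp background correction, 1.59 with quantile normalization and 1.68 with the scaling of the deposited table, so its call depends on the processing. Hyou1 was the only one of the 10 genes to be highest on y-organoid.

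Among the partners of Hspa5, Sdf2l1, which works with the J-domain proteins and keeps their clients soluble, had intensities of 1100.5 on intestine, 1600.0 on crypt, 378.9 on y-organoid and 1545 on o-organoid (chr16:17130426-17130485, minus strand). Its log2 signals were 1.51, 1.77, 0.43 and 1.27. y-organoid stood alone at the bottom, 2.53-fold under crypt (-1.34), while o-organoid differed from crypt by -0.50, and the gaps crypt to intestine and intestine to o-organoid were within a doubled technical SD. Dnajb11 (ERdj3), a soluble J-domain protein that binds unfolded clients, had intensities of 3384, 4473, 1324 and 4331 in the order intestine, crypt, y-organoid and o-organoid (chr16:22872067-22872126, plus strand). Its log2 signals were 3.13, 3.25, 2.24 and 2.76, with y-organoid lowest and 2.02-fold under crypt (-1.02), just past the threshold. A second Dnajb11 probe was not well above background on any array. Dnajc3 (P58IPK), a J-domain protein that also holds back PERK, had intensities of 818.6, 931.0, 236.2 and 948.8 (chr14:119378131-119378190, plus strand) and log2 signals of 1.08, 0.99, -0.25 and 0.57. Intestine and crypt lay within 0.10 of each other, y-organoid was 2.36-fold under crypt (-1.24), and o-organoid differed from crypt by -0.42.

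Dnajb9 (ERdj4), a J-domain protein that feeds degradation and restrains Ern1, gave different pictures by its 2 probes. The brighter probe (chr12:45307313-45307372, minus strand) had intensities of 518.9 on intestine, 321.0 on crypt, 81.9 on y-organoid and 555.9 on o-organoid, or log2 signals of 0.43, -0.55, -1.78 and -0.21. By this probe y-organoid was at least 2-fold under each other array, the only such case among the 10 genes, against 3.23% of the 14440 genes well above background on all arrays. It was 2.35-fold under crypt (-1.23), and o-organoid was 2.97-fold above y-organoid (1.57). The dimmer probe (chr12:45308272-45308331, minus strand) had intensities of 92.1, 40.0, 37.1 and 38.8 in the order intestine, crypt, y-organoid and o-organoid and log2 signals of -2.07, -3.55, -2.92 and -4.05. It gave differences of 0.63 for y-organoid minus crypt and -1.13 for o-organoid minus y-organoid, opposite in sign to the brighter probe. On the log2 scale both probes were highest on intestine, and both put crypt below intestine (-0.97 and -1.48). The files list a non-coding RNA record beside Dnajb9 for the dimmer probe, so the transcripts read by the probes may not be the same.

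Creld2 and Manf code for small proteins that are held in the ER lumen or secreted and are known as targets of the unfolded protein response. Creld2 was measured with 10 spots per array, of which 1, the same on each array, carried an outlier flag and was left out. Its mean intensities were 5233 on intestine, 9791 on crypt, 1478 on y-organoid and 5581 on o-organoid (chr15:88656997-88657056, plus strand). The remaining spots ranged from 5044 to 5435 on intestine, 9215 to 10409 on crypt, 1425 to 1529 on y-organoid and 5469 to 5772 on o-organoid, with an SD of 0.027 to 0.053 on the log2 scale. Repeated spots thus spread far less than the arrays differed. The log2 signals were 3.76, 4.38, 2.39 and 3.12. y-organoid was 3.97-fold under crypt (-1.99), the largest difference of the 10 genes in the 4 comparisons, and o-organoid was 2.40-fold under crypt (-1.26).

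Manf had intensities of 2188 on intestine, 3330 on crypt, 572.3 on y-organoid and 1854 on o-organoid (chr9:106791278-106791337, minus strand), or log2 signals of 2.50, 2.83, 1.03 and 1.53. Both organoid arrays lay below both tissue arrays. The difference from crypt was 3.48-fold on y-organoid (-1.80) and 2.45-fold on o-organoid (-1.30), and Creld2 and Manf were the only genes of the 10 past 2-fold in both.

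Xbp1, the transcription factor, had intensities of 17056 on intestine, 15240 on crypt, 5975 on y-organoid and 15066 on o-organoid (chr11:5425816-5425875, plus strand). Its log2 signals were 5.47, 5.02, 4.41 and 4.55. Intestine was highest, both organoid arrays were lowest, and these 2 differed by 0.14, within a doubled technical SD. The differences from crypt were -0.61 on y-organoid and -0.47 on o-organoid, so Xbp1 transcript did not reach 2-fold in any of the 4 comparisons made here, although the highest and lowest arrays, intestine and y-organoid, lay further apart than that. In which exon or UTR each probe lies was not analysed here, as no annotation of build mm9 was used.

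**Figure D1:**
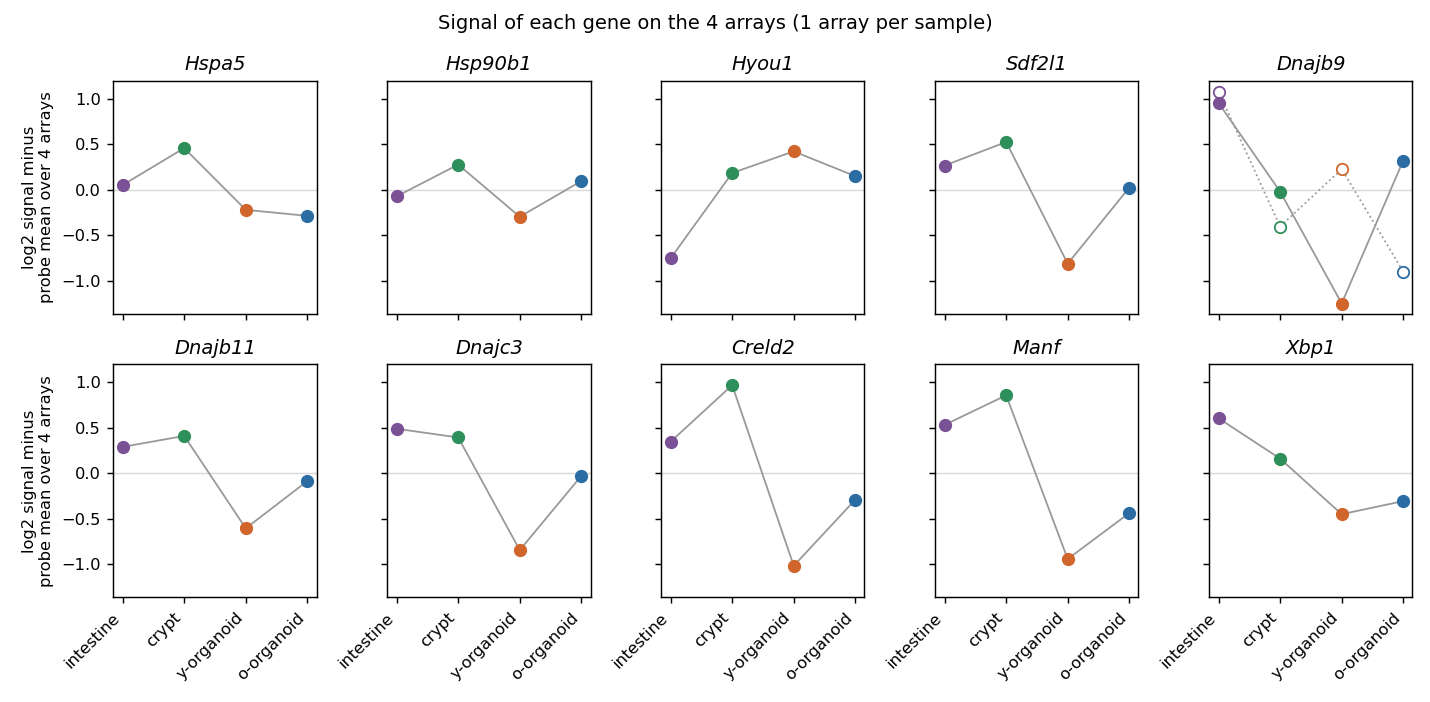
Log2 signal of each of the 10 genes on the 4 arrays, with the probe's mean over the arrays subtracted. Each point is 1 array and filled points are the brighter probe; open points and the dotted line show the dimmer Dnajb9 probe. 8 of the 10 genes have their lowest point on y-organoid by the brighter probe, while Hyou1 is highest there and Hspa5 is lowest on o-organoid.

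By the brighter probe of each gene, 8 of the 10 were lowest on y-organoid, where 23.2% of the 14440 genes well above background on all arrays were lowest. The exceptions were Hyou1, lowest on intestine, and Hspa5, lowest on o-organoid. Crypt was the highest array for 6 genes, intestine for 3 (Dnajb9, Dnajc3 and Xbp1), y-organoid for 1 (Hyou1) and o-organoid for 0. The shares of all genes highest on each array were not counted, so these counts cannot be read as particular to the 10 genes. Of the 30 gaps between neighbours in these orders, 12 were within a doubled technical SD, and many of these touch the ends of the orders. By this pooled SD, the lowest place was not resolved for Hspa5, Hsp90b1 and Xbp1. The highest was not resolved for Hsp90b1, Hyou1, Sdf2l1, Dnajb11 and Dnajc3. On an array the pooled SD was 0.089 to 0.141, while bright repeated probes had a median SD of 0.038 to 0.058. The pooled SD is thus wide for bright probes, such as those of Hspa5, Hsp90b1 and Xbp1. Of the 8 genes lowest on y-organoid, Hsp90b1 (a gap of 0.22 to intestine) and Xbp1 (0.14 to o-organoid) held that place within the doubled pooled SD.

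Between crypt and intestine, the 10 genes differed little. The median difference was 0.29, beside 0.15 for all genes. On crypt 7 genes were higher and 3 lower, beside 38.9% of all genes below 0. In either direction 0 passed 2-fold, while over all genes 7.38% were higher and 7.61% lower by 2-fold (0.316% and 3.02% by 4-fold). Hyou1 (0.94) and Creld2 (0.62) had the largest positive and Dnajb9 (-0.97) and Xbp1 (-0.44) the largest negative differences. The sign for Dnajb11, Dnajc3 and Xbp1 changed with the scaling or the choice of probes. When the arrays were scaled as in the authors' deposited value table, 5 of the 10 were higher by 2-fold, against 42.0% of all genes higher and 3.66% lower, since that scaling moved the median of all genes to 0.89. The pancreatic, plasma cell and stromal signals of the intestine array move with this comparison, and their part in these values was not tested. Pancreatic acinar and plasma cells are themselves rich in ER chaperones.

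Against crypt, y-organoid had lower signals of most of the 10 genes. Creld2 (3.97-fold), Manf (3.48-fold), Sdf2l1 (2.53-fold), Dnajc3 (2.36-fold), Dnajb9 (2.35-fold) and Dnajb11 (2.02-fold) were lower by at least 2-fold, and Hspa5 (-0.68), Xbp1 (-0.61) and Hsp90b1 (-0.57) were lower by less. Hyou1 alone was higher (0.24), with a sign that changed under other scalings. Thus 6 of 10 were past 2-fold lower and 0 higher, beside 13.3% lower and 16.0% higher among all genes, and 9 of 10 lay below 0 beside 45.4%. At 4-fold, 0 of 10 were past the threshold, beside 3.98% lower and 3.99% higher. The median of the 10 was -1.12 against 0.10 for all genes. With whole samples, fewer cells of a type and less RNA per cell cannot be told apart: the summed Paneth, goblet and enterocyte marker signals were also lower on y-organoid than on crypt, and their part in the difference was not tested. By 2-fold, 6 of 7 Paneth markers were lower and 1, Nupr1 (4.81), was higher, 4 of 7 measured goblet markers were lower and 0 higher (Clca1 was at 0.61), and 9 of 9 measured enterocyte markers were lower. Creld2, Manf, Sdf2l1 and Dnajc3 were past 2-fold under each of the 8 settings that keep this threshold, while 4 genes were past it when all probes of a gene were averaged and 9 under the scaling of the deposited table, where 26.8% of all genes were lower and 7.79% higher and their median was -0.41.

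o-organoid showed a smaller difference from the same crypt array. Manf (2.45-fold) and Creld2 (2.40-fold) were lower by at least 2-fold, and 0 of the 10 were higher, beside 12.2% lower and 7.95% higher among all genes (3.78% and 1.5% at 4-fold, where 0 of the 10 lay). The scaling of the deposited table left these counts at 2 and 0, beside 10.1% and 10.3%. Hspa5 (-0.75), Sdf2l1 (-0.50), Dnajb11 (-0.50), Xbp1 (-0.47) and Dnajc3 (-0.42) were lower by less. Hsp90b1 (-0.18), Hyou1 (-0.04) and Dnajb9 (0.34) stood nearest to crypt, and these last 3 changed sign with the scaling or the choice of probes. The median of the 10 was -0.48 against -0.03 for all genes, with 9 of 10 below 0 beside 51.4%. Beside this, 4 of 7 Paneth markers were lower by 2-fold and 1, Nupr1 (3.03), was higher, and 5 of 7 goblet and 8 of 9 enterocyte markers were lower, with summed signals of 435.9, 402.2 and 263.4 on o-organoid against 683.8, 1250.0 and 1703 on crypt. Their part in these values was not tested. Both organoid comparisons share the crypt array, so the genes they have in common are not a repeat of one another.

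Set directly against each other, the organoid arrays differed by 2-fold in Dnajb9 alone, which was 2.97-fold higher on o-organoid by its brighter probe. Thus 1 of 10 was higher and 0 lower, beside 8.25% higher and 16.9% lower among all genes, and 0 passed 4-fold beside 0.875% and 2.48%. Sdf2l1 (0.84), Dnajc3 (0.82), Creld2 (0.73), Dnajb11 (0.52), Manf (0.51), Hsp90b1 (0.39) and Xbp1 (0.14) were also higher on o-organoid, while Hspa5 (-0.07) and Hyou1 (-0.27) lay below 0, beside 57.2% of all genes. The signs for Dnajb11, Hspa5 and Hyou1 changed with the scaling, the background correction or the choice of probes. The median of the 10 was 0.51 where that of all genes was -0.16. Under the scaling of the deposited table, 7 of the 10 were past 2-fold higher, beside 26.4% of all genes higher and 5.48% lower, with a median of 0.48. The amount of RNA labelled (40 and 20 ng) differs between these arrays and cannot be told apart from the samples.

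**Figure D2:**
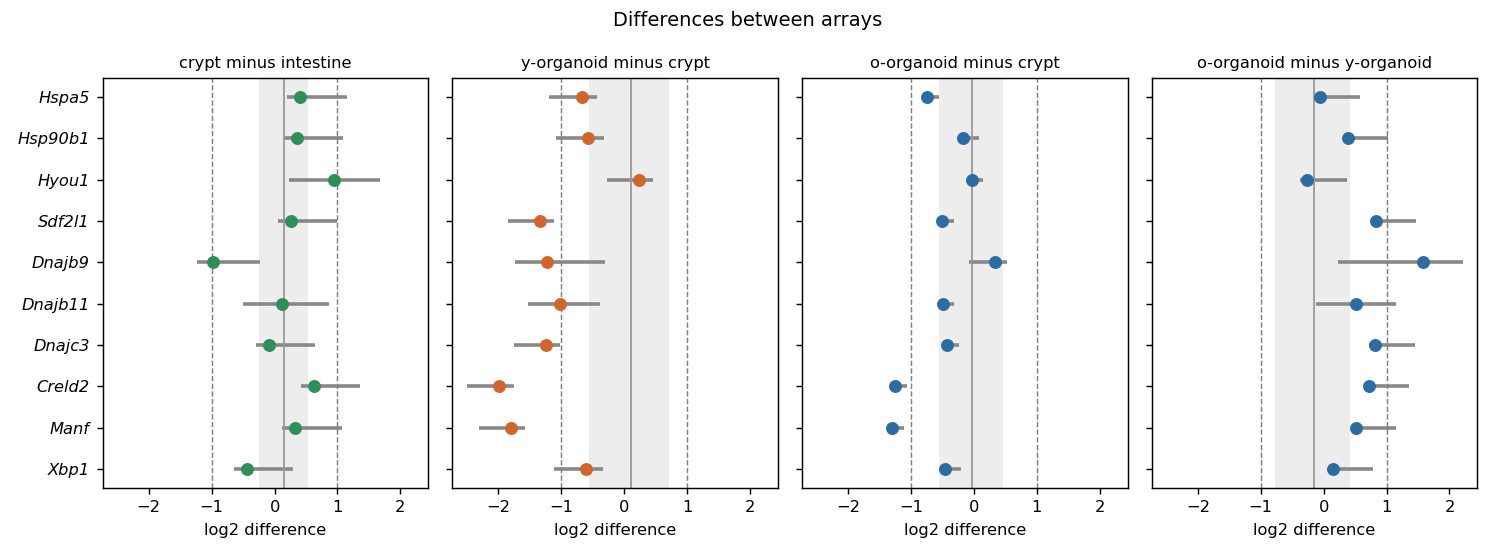
Log2 difference of each gene in the 4 comparisons. Points are the main setting, bars the range over the processing settings, dashed lines mark 2-fold, and the grey line and band are the median and the middle 50% of all genes. On y-organoid minus crypt 6 points lie beyond the lower dashed line, and on o-organoid minus crypt only Creld2 and Manf do.

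The rest of the secretory pathway was read through 89 further genes in 7 lists, which were chosen with earlier results of these data known. Of the 87 to 88 genes measured on both arrays of a comparison, 3 were higher and 2 lower on crypt than on intestine, 3 higher and 34 lower on y-organoid than on crypt, 3 higher and 7 lower on o-organoid than on crypt, and 24 higher and 3 lower on o-organoid than on y-organoid. Over all genes the shares higher and lower were 7.38% and 7.61%, 16.0% and 13.3%, 7.95% and 12.2%, and 8.25% and 16.9% in the same order, and each list's counts are to be read beside them. Several of the pathway counts, such as those higher on y-organoid than on crypt or lower on o-organoid than on crypt, lie below the share over all genes. The median difference of the pathway genes was 0.15, -0.74, -0.26 and 0.37 in that order, and the first of these turned to -0.049 with the 75th percentile taken over bright probes.

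Among the sensors and arms of the unfolded protein response, 1 of 7 genes was higher and 1 lower on y-organoid than on crypt, with a median of -0.49, near the 16.0% and 13.3% over all genes. Ern2, the form of the Xbp1-splicing sensor found in mucosal epithelium, was higher on crypt than on intestine (1.35) and lower on y-organoid than on crypt (-1.39). Its general counterpart Ern1 differed by 0.99 between y-organoid and crypt and was lower on o-organoid than on y-organoid (-1.21). Mbtps2, the site-2 protease that frees Atf6 from the membrane, was higher than on crypt by 2.28 on y-organoid and 1.35 on o-organoid. Of the sensors that splice Xbp1, one was thus lower on y-organoid than on crypt and the other higher by just under 2-fold.

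Of 19 lectin chaperones and disulfide exchange genes, 8 were lower and 1 higher on y-organoid than on crypt (median -0.67), and 3 lower and 2 higher on o-organoid (median -0.27). Agr2, a disulfide isomerase needed for mucin folding in goblet cells and also one of the goblet markers above, was lower on y-organoid (-2.70) and on o-organoid (-1.47). The paired oxidases that drive disulfide formation went in opposite directions: Ero1b was lower on y-organoid by 4.004-fold and on o-organoid by 3.18-fold, while Ero1a was higher by 10.2-fold and 13.5-fold. Ero1b was also lower on crypt than on intestine (-2.06), and Pdia5, a disulfide isomerase, was higher (1.49). Of the 7 other cofactors of ER Hsp70, 1 was higher and 1 lower on y-organoid, again near the share over all genes: Sil1, the second exchange factor of Hspa5, was higher (1.12) and the J-domain protein Sec63 was lower (-1.01). On o-organoid 0 of the 7 passed 2-fold against crypt.

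ER-associated degradation, which removes proteins that fail to fold, had 5 of 13 measured genes lower and 0 higher on y-organoid than on crypt (median -0.84), and 0 of 14 past 2-fold on o-organoid (median -0.33). Edem3, a mannosidase that marks clients, was lower on y-organoid (-1.88), as were the ligase adaptor Sel1l (-1.76) and Selenos (-1.73). Derl3, also a plasma cell marker here, was lower on crypt than on intestine (-5.04) and had the largest difference of the pathway genes in that comparison. Derl3 was not well above background on y-organoid, where it was at least 3.77-fold lower than on crypt, and it is outside the count of 13. Of 17 translocon and signal peptidase genes, 6 were lower and 0 higher on y-organoid (median -0.76), with Tram1 at -1.73, Ssr2 at -1.53 and Sec11c at -1.43, and 1 was lower on o-organoid, the signal peptidase subunit Spcs2 (-1.13). N-glycosylation had few genes past 2-fold: of 10 genes, 1 was lower on y-organoid, Ostc (-1.43), and 0 passed 2-fold on o-organoid, where the median was 0.12.

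Transport from the ER to the Golgi had the lowest medians of the 7 lists on both organoid arrays. On y-organoid 12 of 14 genes were lower than on crypt and 0 higher (median -1.42), and on o-organoid 3 were lower and 0 higher (median -0.79). The vesicle coat genes Sec24d and Sec13 were lower on y-organoid (-3.72 and -2.17), as was Kdelr3, a receptor that returns escaped chaperones with a KDEL end such as Hspa5 (-2.94). Sec24d (-1.75), the cargo receptor Surf4 (-1.38) and Kdelr3 (-1.37) had the largest differences on o-organoid. On o-organoid 6 of 14 were higher and 1 lower than on y-organoid, among them Sec24d (1.98) and Sec13 (1.93).

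The PERK, ATF4 and CHOP arm, which responds to amino acid shortage and other stresses as well as to ER stress, held genes with much higher signals on the organoid arrays than on crypt, though not all of its members. Of 7 genes measured on both arrays, 4 were higher and 0 lower on y-organoid than on crypt (median 1.27), beside 16.0% and 13.3% of all genes, and 3 were higher and 0 lower on o-organoid (median 0.95), beside 7.95% and 12.2%. Atf3 was at -0.51 on y-organoid and Ppp1r15a at 0.079 on o-organoid, both named after their values were seen. Trib3, a pseudokinase induced by this arm, was higher than on crypt by 3.39 on y-organoid and 2.98 on o-organoid. Asns, asparagine synthetase, was higher by 2.88 and 2.50. Ddit3, which codes for CHOP, was higher by 1.27 and 1.11, and Sesn2 by 1.95 on y-organoid, with a difference of 0.95 on o-organoid. Chac1, a glutathione-degrading enzyme of this arm, was not well above background on crypt and was at least 122.7-fold higher on y-organoid and at least 201.0-fold higher on o-organoid. These bounds set the organoid signal against the higher of the probe's own crypt signal and the lowest crypt signal well above background. Crypt minus intestine was -1.41 for Atf3, -1.06 for Asns, -0.90 for Trib3, -0.19 for Ddit3 and -0.025 for Sesn2. It was 0.21 for Atf4 and 0.22 for Ppp1r15a, and Chac1 was at least 12.0-fold lower on crypt than on intestine. The organoid arrays were not set against intestine, so the sizes given hold against crypt only.

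**Figure D3:**
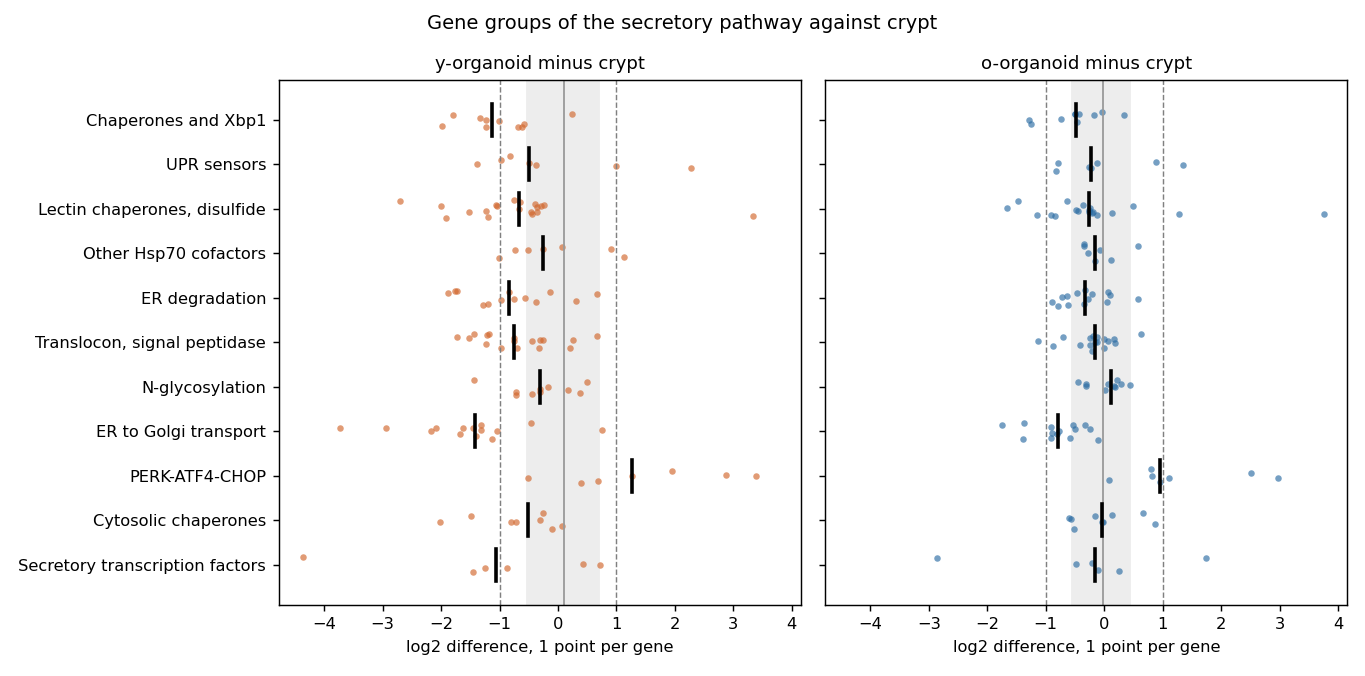
Log2 difference from crypt of the 10 genes (top row) and of the other lists on y-organoid (left) and o-organoid (right). Each point is 1 gene measured on both arrays, black bars are list medians, dashed lines mark 2-fold, and the grey line and band are the median and middle 50% of all genes. ER to Golgi transport has medians of -1.42 and -0.79, and the PERK, ATF4 and CHOP list has 1.27 and 0.95.

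The shape of each profile over the 4 arrays was compared with those of the 14440 genes well above background on all of them, as the largest difference between centred log2 signals. The genes nearest to Hspa5 were Aldh3a2, Ciao3, Vps52, Arhgef11 and Lgals4, at 0.033 to 0.057, and those nearest to Xbp1 were Rfxank, Rnf185, a transcript listed as TC1603041, Prmt2 and Chmp1b, at 0.065 to 0.084. With 4 arrays such nearness is common: 2957 genes lay within 0.5 of Hspa5 and 1639 within 0.5 of Xbp1. Among the 10 genes, the nearest to Hspa5 was Hsp90b1 (0.38) and the nearest to Xbp1 was Dnajb11 (0.32).

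**Figure D4:**
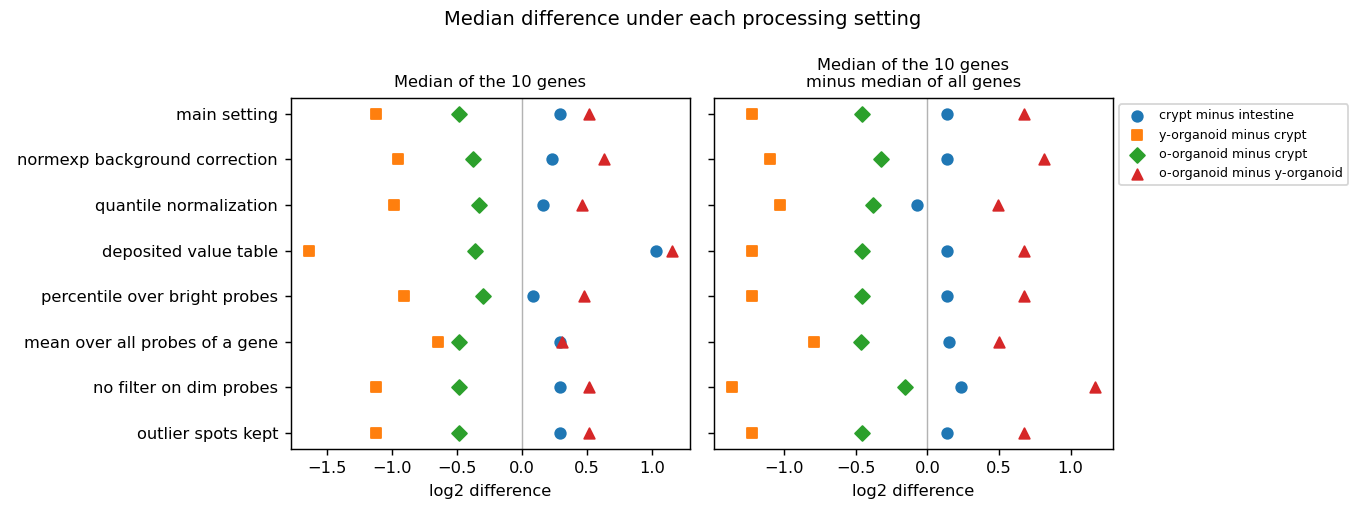
Median log2 difference of the 10 genes under each processing setting (left) and the same minus the median of all genes (right), with 1 symbol per comparison. Relative to all genes, y-organoid minus crypt stays between -1.37 and -0.79 and o-organoid minus crypt between -0.47 and -0.16.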

How the data were processed

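RNA of 4 mouse samples was labelled with Cy3 and hybridised to 1 Agilent array each, all on 1 slide. The intensity values used are the processed signals deposited by the authors, background-subtracted and detrended by Agilent Feature Extraction 10.7.3.1, per the file headers. The authors' deposited value table holds the same intensities as a ratio to 1 constant per array. Probe positions are those of mm9, per the file headers.

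Control spots and spots flagged as outliers were left out, log2 values were centred on each array's 75th percentile, and spots of a probe were averaged. A gene with several probes was read by the one of highest mean signal, and a difference was taken where both arrays were well above background. Probes were named through RefSeq (GRCm38.p6): 27234 through accessions, 3576 through symbols and 565 through synonyms, with 8054 left under the files' name. The 10 genes and all lists were chosen with earlier results of these data known. Named genes are the 10, up to 3 of each other list with the largest difference per comparison, and the 5 nearest profiles; Xist, Eif2s3y and Ddx3y were chosen after their values were seen. Alternatives were normexp correction (limma 3.58.1 in R 4.3.3, offset 50), quantile normalization, the value table, a percentile over bright probes, the mean over probes, no filter on dim probes, outlier spots kept and a 4-fold threshold. Scripts were tested on simulated data.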

Additional observations from a re-analysis of the deposited data

Results flagged for a closer look

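Dnajb9 differed from crypt in opposite directions on the organoid arrays, by -1.23 on y-organoid and 0.34 on o-organoid with its brighter probe. The difference between these values was not tested, since each rests on 1 array, and both use the same crypt array. The dimmer Dnajb9 probe had the signs turned, 0.63 and -0.50, and with both probes averaged the values were -0.30 and -0.077.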

How the results depend on the processing

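No paired analysis was possible because each group has 1 array. Among medians and counts of the 10 genes and the pathway genes, 94 were classed as unchanged under the 8 alternatives and 26 as moved. None reversed among values past 2-fold. A count classed as unchanged could still differ. The 6 genes lower on y-organoid than on crypt became 9 with the deposited table and 4 with probes averaged. Scaling as in the deposited value table gave medians of the 10 genes and of the pathway genes of 1.03 and 0.89 for crypt minus intestine (5 of the 10 higher), -1.64 and -1.25 for y-organoid minus crypt, and 1.15 and 1.01 for o-organoid minus y-organoid (7 of the 10 higher). With the percentile over bright probes they were 0.089 and -0.049 for crypt minus intestine (1 lower), -0.91 and -0.52 for y-organoid minus crypt, and -0.30 and -0.078 for o-organoid minus crypt. Quantile normalization gave 1 gene higher on crypt than on intestine, a pathway median of -0.52 for y-organoid minus crypt, and -0.33 for the 10 genes on o-organoid minus crypt. With probes averaged, medians were -0.65 and -0.56 for y-organoid minus crypt and 0.31 for the 10 genes on o-organoid minus y-organoid (0 higher), and 1 gene was lower on crypt than on intestine. At 4-fold, 0 genes were lower on either organoid than on crypt and 0 were higher on o-organoid than on y-organoid, where 3.98%, 3.78% and 0.875% of all genes were. The deposited table divides by another constant per array and the 4-fold setting asks for a larger difference; the cause of the other shifts was not tested. With 1 array per group no spread between animals or cultures is known. Low signal over background limits Hyou1, the dimmer Dnajb9 probe and the second Dnajb11 probe, which was not well above background on any array. Other named differences rest on low log2 signals too, such as those of Mbtps2 (-3.73) and Ero1a (-3.03) on crypt and Kdelr3 (-3.64) on y-organoid.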

Other observations

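Cytosolic chaperones and secretory transcription factors are set here beside the ER genes. Of 9 cytosolic chaperone genes, 5 were higher on crypt than on intestine by 2-fold and 0 lower (median 1.11), beside 7.38% of all genes higher and 7.61% lower. Among them were Hsph1, an exchange factor of cytosolic Hsp70 (2.54), the inducible Hsp70 gene Hspa1a (1.69) and Hsp90aa1, a cytosolic Hsp90 (1.59). On y-organoid 2 of 8 measured genes were lower than on crypt, Hsph1 (-2.01) and the J-domain protein Dnaja1 (-1.48), and 0 were higher, beside 13.3% of all genes lower and 16.0% higher. Hspa1a was not well above background on y-organoid, where it was at least 4.95-fold lower than on crypt, and it is outside the count of 8. On o-organoid 0 of 9 passed 2-fold against crypt in either direction.

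Of 6 genes listed as transcription factors of secretory cells, 3 were lower on y-organoid than on crypt and 0 higher. The shares over all genes were 13.3% and 16.0%. The 3 were Creb3l3 (-4.37), Creb3l4 (-1.45), and Atoh1, which sets the secretory fate in the crypt (-1.25). Creb3l3 was lower on both organoid arrays, where most enterocyte markers were also lower, and their part in it was not tested. On o-organoid Creb3l3 was lower (-2.86) and Bhlha15, a factor known for the secretory apparatus of acinar and plasma cells, was higher (1.75), or 1 of 6 each way beside 12.2% lower and 7.95% higher. Bhlha15 was lower on crypt than on intestine (-2.14), where the acinar markers were high, and their part in it was not tested.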
